A study of Danio rerio with 2 samples.

Results

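The cardiac chamber myosins of the zebrafish (Danio rerio) were followed between hearts of kctd10 mutants and wild-type hearts. The 5 genes were chosen by name: the heavy chain genes myh6, vmhc and vmhcl and the light chain genes myl7 and cmlc1. All 5 names occurred in the authors' table, each with 1 identifier, among 26126 listed genes, and all 5 were among the 24009 genes with at least 10 counts. Names follow the authors' table throughout: a current name table instead gives the vmhc identifier the symbol MYH6 and the vmhcl identifier MYH7, and RefSeq lists vmhc and vmhcl as synonyms of myh7 and myh7l. Which chamber each heavy chain identifier stands for therefore rests on the authors' names. The libraries are labelled kctd10 -/- and wild type, both of AB background, both from hearts at 48 hours post fertilization, and kctd10 encodes an adaptor of the Cullin 3 ubiquitin ligase. There was 1 library per genotype. The sources used here state neither the lesion in the kctd10 allele nor the number of hearts per library.

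Myosin of the heart muscle is a hexamer of paired heavy chains, which carry the motor, with an essential and a regulatory light chain on each neck. In the zebrafish embryo myh6 (also called amhc) is the heavy chain of the atrium, vmhc is that of the ventricle, and vmhcl is a near relative named for its likeness to vmhc. The regulatory light chain gene myl7 (also called cmlc2) and the essential light chain gene cmlc1 serve the heart muscle, and myl7 is widely used to mark the whole heart. Of these genes, myh6 and vmhc therefore serve as markers of atrial and ventricular muscle at this stage.

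The gene counts came to 139099775 in the mutant library and 150001992 in the wild-type library. The kctd10 transcript itself had 19942 counts in the mutant library and 8226 in the wild-type library, a ratio of 2.57 (95% interval 2.5 to 2.64). This level had been planned as a check of the labels. The lesion in the allele is not stated in the sources used here, so the level cannot check them. The 5 chamber myosin genes together took 0.986% of the counts in the mutant library and 0.690% in the wild-type library. Genes of other tissues were counted as well, and skin markers alone summed to 34535 CPM (counts per 1000000 scaled counts of the library) in the mutant library and 47639 CPM in the wild-type library. With 1 library per genotype nothing measures the spread between animals or dissections. Every interval below covers counting error only, amplified reads are not independent molecules, and every ratio compares these libraries as labelled.

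All 5 chamber myosin genes had more scaled counts in the mutant library, by unequal amounts, except that vmhcl was below its wild-type level when the libraries were scaled to thin filament genes. The atrial heavy chain gene myh6 had the greatest ratio of mutant over wild type, 2.26, ahead of the essential light chain gene cmlc1 (1.63) and the ventricular heavy chain gene vmhc (1.49). The regulatory light chain gene myl7 had a ratio of 1.37 and vmhcl one of 1.09. By the rule that the whole interval lies above 1.5-fold, myh6 and cmlc1 were called higher and the other 3 were not, so that 2 of 5 were called higher and 0 lower. Scaled to thin filament genes, cmlc1 was no longer called (1.21) and myh6 still was (1.68). Over all 24009 genes tested, 6.03% were called higher and 6.66% lower. The 5 genes had a median log2 ratio of 0.58, against 0.00084 for all genes tested. These shares and medians describe the genes and are no test of them.

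**Figure D1:**
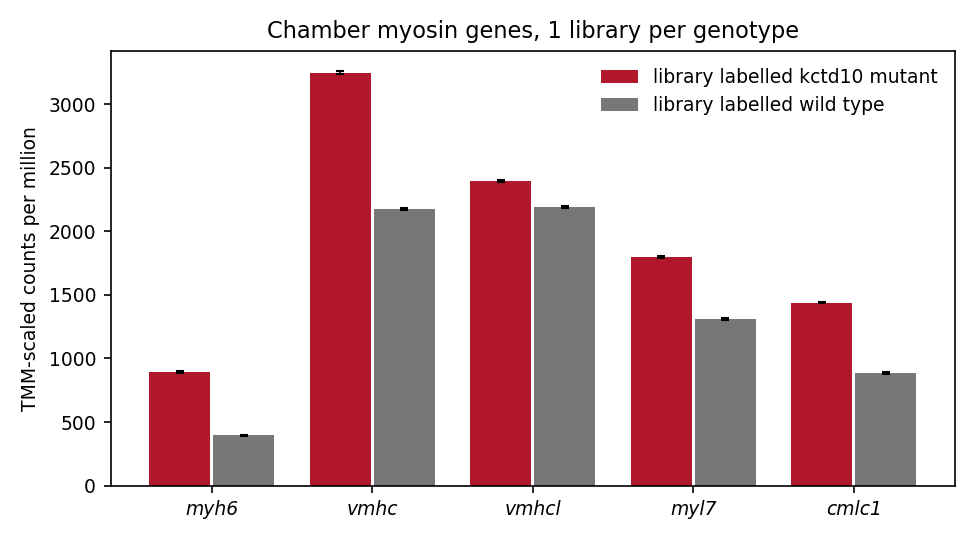
Level of each chamber myosin gene in the library labelled kctd10 mutant (red, left) and in the library labelled wild type (grey, right), as TMM-scaled CPM, with exact 95% Poisson intervals as bars. Under this scaling the mutant bar stands above the wild-type bar for all 5 genes (vmhcl turns when scaled to thin filament genes), by most in proportion for myh6 (894 against 396 CPM) and by least for vmhcl (2395 against 2192 CPM); bars of different genes are not comparable, since longer transcripts give more counts.

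Of the heavy chains, myh6 (ENSDARG00000090637) had 125493 counts in the mutant library and 58927 in the wild-type library, or 894 and 396 CPM. Its ratio of mutant over wild type was 2.26 (2.23 to 2.28), a log2 ratio of 1.17. Of the genes tested, 1055 had a greater log2 ratio, which placed myh6 at percentile 95.6. The ventricular gene vmhc (ENSDARG00000079564) had 455687 counts in the mutant library and 323839 in the wild-type library, or 3247 and 2178 CPM. Its ratio of 1.49 (1.484 to 1.497) lay just under the 1.5-fold limit, at percentile 87.4. With both libraries scaled to their totals the ratio was 1.52 and vmhc was called higher.

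The gene vmhcl (ENSDARG00000079782) had 336140 counts in the mutant library and 325922 in the wild-type library, or 2395 and 2192 CPM. Its ratio of 1.09 (1.087 to 1.098) was the smallest of the 5, at percentile 63.0, and 8890 genes had a greater one. The RefSeq gene table of the assembly GRCz12tu places vmhc and vmhcl beside each other with a microRNA gene between them. How reads that match both genes were assigned is not known, so the single values of this pair are uncertain. Counted as 1 gene, the pair had 791827 counts in the mutant library and 649761 in the wild-type library, a ratio of 1.29 (1.287 to 1.295).

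Of the light chains, cmlc1 (ENSDARG00000032976) had 202062 counts in the mutant library and 131686 in the wild-type library, or 1440 and 886 CPM. Its ratio was 1.63 (1.61 to 1.64), at percentile 90.3. The regulatory light chain gene myl7 (ENSDARG00000019096) had 252712 counts in the mutant library and 194884 in the wild-type library, or 1801 and 1311 CPM. Its ratio was 1.37 (1.37 to 1.38), at percentile 84.0. The order of the ratios was thus myh6, cmlc1, vmhc, myl7 and vmhcl, and no neighbours in that order had overlapping counting intervals. Whether neighbours differ beyond the spread between samples was not measured.

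The depth of these genes makes their intervals narrow, so they were also set beside deeply counted genes, by a limit chosen after the data were seen. Of 386 genes with at least 100000 counts over both libraries, 5.96% were called higher and 3.11% lower, and their median log2 ratio was −0.082. Among these 386, 7 had a greater log2 ratio than myh6, 17 than cmlc1, 25 than vmhc, 36 than myl7 and 89 than vmhcl. The whole interval lay above 1 for all 5 chamber myosin genes, as it did for 34.1% of all genes tested and for 34.7% of these 386.

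The balance between the genes within a library does not depend on how the libraries are scaled. For each of the 10 pairs of chamber myosin genes, the ratio of the counts of one to the other was taken in each library and then compared. The myh6 to vmhc ratio was 0.275 in the mutant library and 0.182 in the wild-type library, a fold of 1.51 (1.497 to 1.53). The myh6 to vmhcl ratio was 0.373 in the mutant library and 0.181 in the wild-type library, a fold of 2.06 (2.04 to 2.09), the widest of the 10. The vmhc to vmhcl ratio was 1.36 in the mutant library and 0.994 in the wild-type library, a fold of 1.36 (1.36 to 1.37). The atrial heavy chain thus gained on both vmhc and vmhcl in the counts of the mutant library, and vmhc gained on vmhcl.

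**Figure D2:**
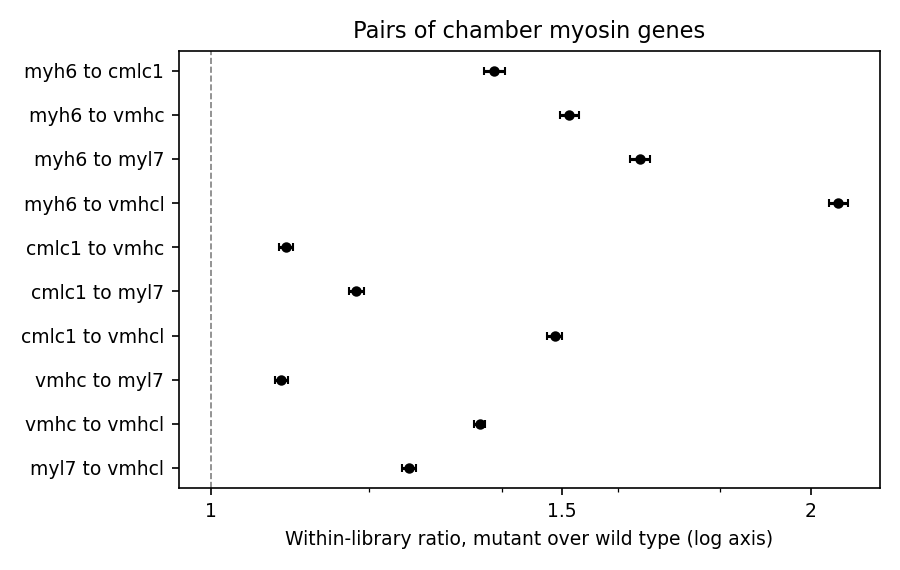
Fold between the libraries, mutant over wild type, in the within-library count ratio of each pair of chamber myosin genes (log axis), with 95% counting intervals as bars and a dashed line at no change. Pairs are written with the gene of greater ratio first, so all 10 lie right of the line; they span 1.09 for vmhc to myl7 and for cmlc1 to vmhc up to 2.06 for myh6 to vmhcl.

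Among the summed counts of the 3 heavy chain genes, myh6 held 13.7% in the mutant library (exact binomial 95% interval 13.6 to 13.8) and 8.31% in the wild-type library (8.25 to 8.38). The share of vmhc was 49.7% in the mutant library and 45.7% in the wild-type library. The share of vmhcl was 36.6% in the mutant library and 46.0% in the wild-type library. The mutant library thus held a larger share for myh6, a difference of 5.37 percentage points, and a smaller one for vmhcl, a difference of −9.35 points. These are shares of counts and not of molecules, since no transcript length was used. In bulk RNA, more cells of a type and more RNA per cell cannot be told apart. A larger myh6 share therefore does not separate a larger atrium from more myh6 per atrial cell. The share also depends on the vmhc and vmhcl counts in the sum. It does not separate an atrial change from a ventricular one, or from the part of each heart collected.

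**Figure D3:**
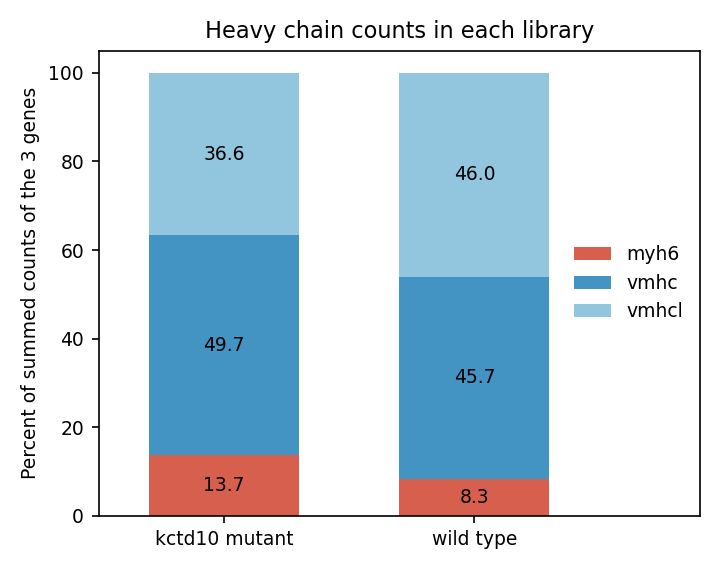
Share of the summed counts of myh6, vmhc and vmhcl that each gene held in the mutant library (left) and in the wild-type library (right), in percent. The myh6 segment is 13.7% in the mutant library against 8.31% in the wild-type library, and the vmhcl segment 36.6% against 46.0%.

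The light chains serve both chambers, and their counts were set against the summed heavy chains. The 3 heavy chain genes summed to 917320 counts in the mutant library and 708688 in the wild-type library, a ratio of 1.37 (1.37 to 1.38). The ratio of myl7 to the summed heavy chains was 0.275 in both libraries, a fold of 1.002 (0.995 to 1.009). The ratio of cmlc1 to the summed heavy chains was 0.220 in the mutant library and 0.186 in the wild-type library, a fold of 1.19 (1.18 to 1.19). The regulatory light chain kept the same count ratio to the summed heavy chains within counting error, and the essential light chain had a greater one in the mutant library. Against each heavy chain alone, the myl7 ratio did differ between the libraries. Its fold was 0.609 to myh6, 0.922 to vmhc and 1.26 to vmhcl. The cmlc1 to myl7 ratio was 0.7996 in the mutant library and 0.676 in the wild-type library, a fold of 1.18 (1.17 to 1.19).

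The authors' own tables gave the same order. For the Ensembl genes that order was fixed in advance, since the authors' folds equal the ratios used here times 1 constant. In the authors' deposited table of Ensembl genes the folds were 2.25 for myh6, 1.62 for cmlc1, 1.49 for vmhc, 1.37 for myl7 and 1.09 for vmhcl. That table also holds p-values from DESeq. With 1 library per genotype they cannot measure the spread between animals, so they are not repeated here. In the second of the authors' tables, the authors' deposited table on UniGene clusters, the folds were 2.28 for myh6, 1.6 for cmlc1, 1.54 for vmhc, 1.42 for myl7 and 1.08 for vmhcl, each from 1 cluster. Both tables were made from the same libraries and are no independent replicate.

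Other markers of the chambers had ratios in both directions. Of 7 other atrial markers tested 2 were higher and 0 lower, with a median log2 ratio of −0.061. The higher ones were nppa, the atrial natriuretic peptide gene (2.55-fold, 242376 counts in the mutant library and 100775 in the wild-type library), and the T-box gene tbx5a (1.69-fold), named after its value was seen. Of 8 other ventricular markers 3 were higher and 1 lower, with a median of 0.40. hey2, a Notch-responsive repressor, and nkx2.7, a homeobox gene of heart precursors, were 2.19-fold and 2.05-fold higher. The third was nkx2.5 (1.97-fold), named after its value was seen, and it is known from both chambers. Whether the other genes of both marker lists, nppa and tbx5a among them, are confined to a single chamber was not tested. The Iroquois gene irx4b was lower, with 231 counts in the mutant library and 1019 in the wild-type library, a ratio of 0.240 (0.207 to 0.277). The better counted Iroquois genes irx4a (ratio 0.829) and irx1a (ratio 1.08), named after their values were seen, were not called. Of 18 cardiac transcription factor genes 5 were higher, including mef2cb (2.13-fold) and gata4 (2.05-fold), and isl1 was lower (ratio 0.562), with a median of 0.41. The other 3 higher ones were tbx5a, nkx2.5 and nkx2.7, counted above among the chamber markers, so these lists are not separate.

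Genes of the thin filament, on which these motors pull, went both ways. Of 13 tested 5 were higher and 2 lower, with a median of 0.43. The higher ones included lmod2a, whose product nucleates actin filaments (2.11-fold), the troponin C gene tnnc1a (1.78-fold) and the tropomyosin gene tpm4a (1.57-fold, 245342 counts in the mutant library and 165574 in the wild-type library). The lower ones were tpma (ratio 0.155), which also stands among the skeletal muscle fibre markers below, and actc1b (ratio 0.285). With the thin filament median set to no change, every log2 ratio was lower by 0.43: myh6 remained called higher at 1.68, cmlc1 was 1.21, vmhc 1.11, myl7 1.02 and vmhcl 0.812, below 1. The scaling rests on 13 genes whose log2 ratios run between −2.69 and 1.08, and the middle one is nebl, with 23 counts in the mutant library and 18 in the wild-type library. The intervals of the scaled ratios leave out that spread. Over the 12 genes with at least 1000 counts, a limit added after the data were seen, the median was 0.39, vmhcl had a ratio of 0.831, and myh6 alone was called higher (1.72). Of the 13 genes 5 had a log2 ratio below that of vmhcl: tpma, actc1b, tpm1, lmod2b and tnnc1b. Those above vmhcl included actc1a (1.27-fold), tpm4a, tnnt2a (1.59-fold), tnni1b (1.60-fold) and tnnc1a. Each of these had more counts in both libraries than tpm1, lmod2b or tnnc1b. The direction of vmhcl relative to the thin filament thus depends on the gene it is set against. How much of the counts of these genes came from skeletal muscle was not tested.

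**Figure D4:**
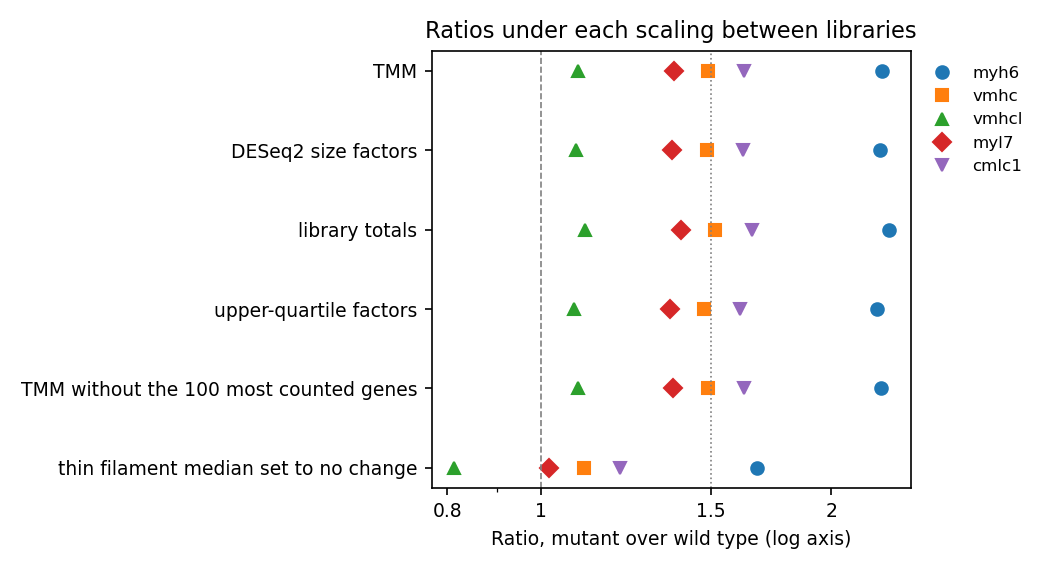
Ratio of mutant over wild type for each chamber myosin gene (symbols) under 6 of the scalings between the libraries (rows, log axis), with a dashed line at 1 and a dotted line at 1.5. The first 5 scalings place each gene nearly alike, with vmhc on either side of 1.5, and the thin filament scaling moves all 5 to the left, myh6 to 1.68 and vmhcl to 0.812.

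Partners of myosin in the thick filament and M-band had a median log2 ratio of −0.45, with 3 of 11 tested higher and 4 lower. This list mixes cardiac and fast-type genes, so its median does not describe the cardiac partners alone. The middle gene was mybpc1, with 69 counts in the mutant library and 100 in the wild-type library, named after its value was seen. The cardiac myosin-binding protein gene mybpc3, the most counted, had 99077 counts in the mutant library and 93850 in the wild-type library, a ratio of 1.12 (1.11 to 1.13). The obscurin gene obscna was 3.51-fold higher and the fast-type binding protein gene mybpc2a 3.88-fold higher, the second on 194 counts in the mutant library and 53 in the wild-type library. The fast-type mybpc2b and the myomesin gene myom3 were lower, with ratios of 0.119 and 0.146. Among 17 genes that fold myosin, turn it over or act on light chain phosphorylation, 1 was higher and 2 lower, with a median of 0.11. The higher one was mylk3, the cardiac myosin light chain kinase gene (1.60-fold, 9110 counts in the mutant library and 6020 in the wild-type library). The lower ones were smyd1a (ratio 0.186), whose product acts in myosin assembly, and the chaperone gene hsp90aa1.2 (ratio 0.539), while the most counted, hsp90ab1, had a ratio of 0.901.

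Among 34 genes of these lists with at least 1000 counts, those nearest in log2 ratio to each chamber myosin were noted, over just the 2 libraries. Nearest to myh6 were lmod2a, the obscurin gene obscnb (1.87-fold) and tnnc1a, all below it. Nearest to cmlc1 were mylk3, the troponin I gene tnni1b (1.60-fold) and the troponin T gene tnnt2a (1.59-fold). Nearest to vmhc were unc45b, a myosin chaperone gene (1.51-fold), tpm4a and tnnt2a. Nearest to myl7 were tmod1 (1.36-fold), mylk2 (1.40-fold) and the cardiac actin gene actc1a (1.27-fold), and nearest to vmhcl were the phosphatase gene ppp1cb (1.08-fold), the ubiquitin ligase gene trim63a (1.08-fold) and smyd1b (1.07-fold).

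Most myosin genes of skeletal muscle were lower in the mutant library. Of 11 other heavy chain genes of striated muscle 9 were lower and 0 higher, with a median log2 ratio of −2.58. The fast skeletal gene myhz2 had 350 counts in the mutant library and 24825 in the wild-type library, and myhc4 had 137 counts in the mutant library and 4263 in the wild-type library. The most counted, myh7bb, had 17535 counts in the mutant library and 14951 in the wild-type library, a ratio of 1.24. Neither it nor myh7ba (ratio 0.865), named after its value was seen, was called. Whether reads were shared between skeletal and chamber heavy chain genes is not known. Of 11 other myosin light chain genes 6 were lower and 2 higher, with a median of −2.34. This list mixes skeletal with smooth and non-muscle genes, and its middle gene, myl13, is among the lower ones. Those not called lower had log2 ratios between −0.086 (myl12.2) and 0.96 (myl9b), so the median does not describe them. The fast skeletal regulatory genes mylpfa and mylpfb had ratios of 0.139 and 0.149. The higher ones were myl9b (1.94-fold), a smooth muscle and non-muscle regulatory chain gene, and the non-muscle essential chain gene myl6 (1.63-fold), named after its value was seen. Among 5 smooth and non-muscle heavy chain genes the smooth muscle gene myh11a was higher (4.87-fold, 5378 counts in the mutant library and 1169 in the wild-type library), and the most counted, myh9a, had a ratio of 0.740.

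**Figure D5:**
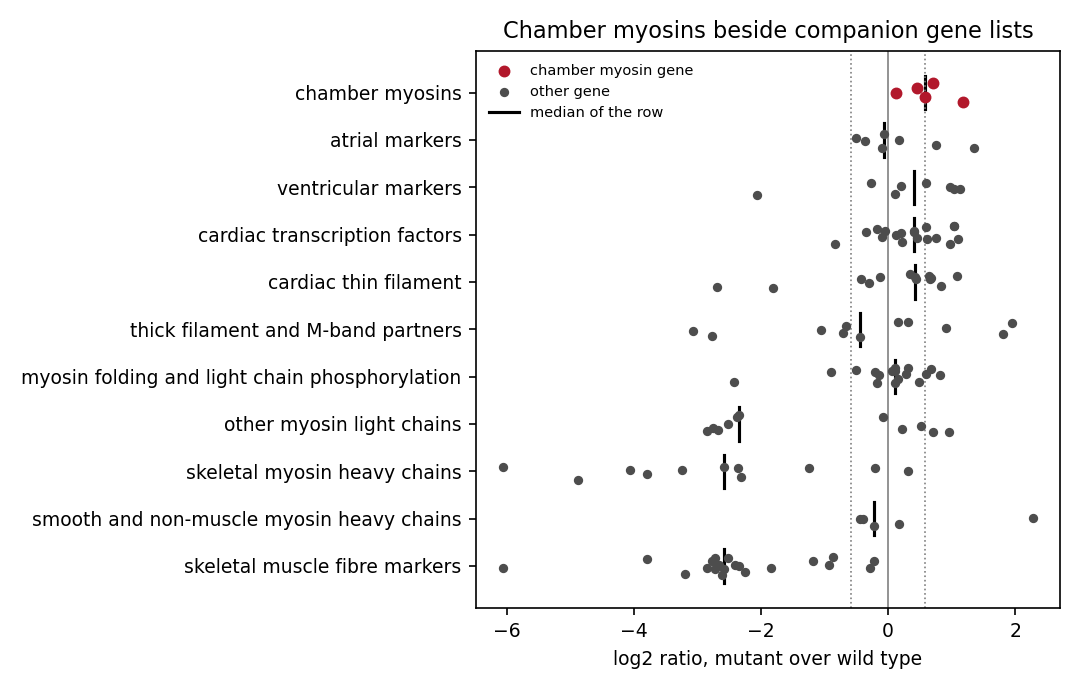
Log2 ratio of mutant over wild type for the chamber myosin genes (red) and for the other genes of companion lists with at least 10 counts (grey), with a black bar at each row's median, a grey line at the median of all genes tested and dotted lines at 1.5-fold. The chamber myosins lie between 0.13 and 1.17, and the other light chains and skeletal heavy chains have medians of −2.34 and −2.58. The row of other light chains is split, and its genes not called lower lie between −0.086 and 0.96.

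Markers of other tissues differed between the libraries too, and their part in the ratios of the chamber myosins was not tested. Of 21 skeletal muscle fibre markers 19 were lower, with summed levels of 1635 CPM in the mutant library and 4548 CPM in the wild-type library, and none of these markers was at 0 in either library. This list shares tpma with the thin filament genes, mylpfa and mylz3 with the light chains, and myhz1.1, myhz2 and smyhc1 with the heavy chains. Of 11 skin markers 2 were lower and 1 higher, with the summed levels given above. Of 11 nervous system markers 3 were lower and 1 higher, with summed levels of 1575 CPM in the mutant library and 2158 CPM in the wild-type library. Of 12 lens and retina markers 9 were higher and 1 lower (2090 CPM in the mutant library and 986 CPM in the wild-type library). Of 12 yolk and liver markers 9 were higher (10120 and 5365 CPM in mutant and wild-type libraries), and of 9 myeloid markers 8 were higher (311 and 129 CPM). Of 5 epicardial markers 4 were higher, with summed levels of 141 CPM in the mutant library and 58.1 CPM in the wild-type library. Of 10 endocardial and endothelial markers 3 were lower and 1 higher (605 CPM in the mutant library and 633 CPM in the wild-type library). Of 8 erythrocyte markers 2 were higher (2278 and 2190 CPM in mutant and wild-type libraries), and of 4 hatching gland markers 1 was higher (6094 and 6450 CPM). The within-library ratios among the 5 chamber myosins do not use the levels of those tissues' genes. Whether those tissues contributed reads to the counts of the 5 was not tested.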

How the data were processed

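RNA from hearts of kctd10 mutant and wild-type zebrafish was sequenced, with 1 library per genotype. TopHat, DESeq and the build Zv9 stand without versions in the submitters' processing notes. The sources used here state no counter, annotation release, use of strand or treatment of multiply matching reads. Raw whole-number counts per Ensembl gene were deposited for both libraries, without normalization. The line for reads outside genes (9.17% of counts in the mutant library, 9.21% in the wild-type library) was left out. The authors' deposited table gives a fold, a log2 fold and p-values from DESeq, per the file headers. For all 23975 genes compared, its fold equals the ratio used here times 1 constant (within 0.1 percent). A second deposited table gives folds and log2 folds on UniGene clusters, per the file headers, and 7 further number columns of both tables, with names unlike any label, were left unused. Its fold is named OE over CON; 563 of 564 clusters matched by symbol to a gene with a log2 ratio beyond 1 had the sign of mutant over wild type.

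Library sizes were scaled by TMM over genes with at least 10 counts (edgeR 4.0.16, R 4.3.3). Each ratio of mutant over wild type carries an exact 95% interval (Clopper-Pearson, on the 2 counts). With at least 10 counts, a gene whose interval was all above 1.5-fold was called higher, and one whose interval was all below the inverse lower. For log2 ratios 0.5 was added to every count. Folds between within-library ratios carry a 95% interval on the log scale from the counts. No test between genotypes was run. The steps were tested on simulated data. The alternatives were other scalings (among them DESeq2 1.42.0 size factors), fold and count limits, a 99% interval, a pseudocount of 1, other denominators and the authors' folds.

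The 5 genes and the 19 companion lists were chosen with earlier results of these data known. Of 227 list entries 211 matched a measured gene, by the name in the authors' table or else in a current name table. The current table gives the vmhc identifier the symbol MYH6 and the vmhcl identifier MYH7, so the list entry myh7 was left out. Named genes were the 5 genes, kctd10, up to 2 higher and 2 lower genes of each list with at least 50 counts and the most distant interval bound, its most counted gene, and the 3 genes nearest in log2 ratio to each of the 5 among the thin filament, thick filament and folding lists with at least 1000 counts. From the RefSeq gene table of another assembly only names and neighbouring genes were taken. Sequences and transcript lengths were not used here, and no coordinates are given.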

Additional observations from a re-analysis of the deposited data

How the results depend on the processing

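Under 5 other scalings, 10 of 25 ratios of the 5 genes stayed within the counting interval of the reported value, those under DESeq2 size factors and TMM without the 100 most counted genes, and 15 moved out of it. The authors' folds equal those under DESeq2 size factors, and a 99% interval leaves the ratios as they are by construction. Library totals gave 2.30 for myh6, 1.52 for vmhc, 1.11 for vmhcl, 1.40 for myl7 and 1.65 for cmlc1, and upper-quartile factors gave 2.23, 1.48, 1.08, 1.36 and 1.61 for the same genes. Setting the thin filament median to no change gave 1.68 for myh6, 1.11 for vmhc, 0.812 for vmhcl, 1.02 for myl7 and 1.21 for cmlc1, with 1 gene called higher; it shifts every log2 ratio by the same amount. Added after the data were seen, that median over genes with at least 1000 counts gave 1.72, 1.13, 0.831, 1.05 and 1.24 for the same genes, with 1 called higher. With the median over all 13 thin filament genes set to no change, 10.9% of the called genes were higher. With the median over those with at least 1000 counts 12.9% were, against 47.5% under TMM. With a 2-fold limit 1 gene, myh6, was called higher, and with library totals 3 were. The myh6 share was 21.6% in the mutant library and 15.4% in the wild-type library against vmhc alone, and 13.2% and 7.25% with the other striated heavy chains in the sum. As alternatives added after the data were seen, the fold in the myh6 to vmhc ratio was 1.75 with vmhc and vmhcl as 1 gene and 1.48 from the authors' deposited UniGene folds. Counts divided by coding length were not run, since no length was given. No paired analysis was possible because each genotype has 1 library.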
